A study of Mus musculus with 12 samples.

Results

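The RNA of 6 genes for carriers of dicarboxylates, citrate and related anions was followed by RNA-seq in cultured fibroblasts of mouse embryos (MEF, cells of the connective tissue). They were Slc13a3, Slc13a4 and Slc13a5 of the plasma membrane and Slc25a1, Slc25a10 and Slc25a11 of the inner mitochondrial membrane, 6 of the 55573 genes in the count table. Slc13a3 was chosen by its read counts in these same libraries, for its large rise with vitamin B12, and the other 5 because they carry related substrates. Its differences with B12 are therefore descriptions without a test, while its other comparisons, and all comparisons of the other carriers, were tested.

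The cells came from 3 C57BL/6 embryos (stage E13.5), called clones 1, 2 and 3. They carried a transgene (OSKM) that doxycycline switches on and that encodes OCT4, SOX2, KLF4 and MYC, which together can reprogram cells. Each clone gave 1 library of each of 4 groups, all harvested 72 h after transfer to medium for induced pluripotent stem cells. MEF cells had neither doxycycline nor added B12, MEF+B12 cells had B12 at 2 µM, OSKM cells had doxycycline at 1 µg/ml, and OSKM+B12 cells had both. Doxycycline was given only with induction, so the drug and the factors cannot be told apart. A clone is all the cells of 1 embryo and not a line from 1 cell, and the library titles carry a later year for clone 1 than for clones 2 and 3.

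Cells hold citrate, succinate, malate and 2-oxoglutarate, the acids of the citric acid cycle, on both sides of the inner mitochondrial membrane and exchange some of them with blood. Carriers of the SLC13 family bring dicarboxylates, citrate or sulfate into the cell together with sodium, and are best known from kidney, liver, brain and placenta. Carriers of the SLC25 family swap such acids across the inner mitochondrial membrane, which feeds fat synthesis, the malate-aspartate shuttle and glucose synthesis. Vitamin B12 is the cofactor of methionine synthase and of methylmalonyl-CoA mutase, whose product enters the citric acid cycle as succinyl-CoA.

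Library totals were 56971244 to 79236795 counted read pairs, and 19174 genes passed the filter on low counts, all 6 carriers among them. Fibroblast markers were abundant, with 10 of 10 listed genes over 1 CPM (counts per 1000000 counted pairs) and a summed level of 91070 to 144100 CPM. Pou5f1, which encodes Oct4, was at most 0.468 CPM without doxycycline. With doxycycline it was 18.5 to 20.7 CPM in clones 1 and 2 and 2.34 to 2.86 CPM in clone 3, so the induced libraries of clone 3 held much less of this factor's RNA. Sox2 was at most 0.838 CPM without doxycycline. With it Sox2 was 13.3 to 17.8 CPM in clones 1 and 2 and 2.18 to 2.33 in clone 3. Myc was 16.38 to 23.25 CPM without doxycycline. With it Myc was 43.63 to 53.44 CPM in clones 1 and 2 and 20.05 to 21.88 in clone 3. Klf4 was not higher with doxycycline, at 108.3 to 122.5 CPM against 118.5 to 143.3 without it. The OSKM library of clone 1 had the highest share of counts in pseudogenes, 6.87%, against 5.59% to 6.75% in the others.

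Slc13a3 (ENSMUSG00000018459) lies on chromosome 2 of GRCm38 at 165405028 to 165473230 on the minus strand, and Slc25a1 on chromosome 16 at 17925223 to 17928219, also on the minus strand. Slc13a4 lies on chromosome 6 at 35267957 to 35308131. The remaining 3 genes lie on chromosome 11, Slc13a5 at 72241989 to 72267222, Slc25a10 at 120491840 to 120499187 and Slc25a11 at 70644196 to 70647479. Of the 6 genes, 4 overlap a gene on the opposite strand, and counting was by strand. The overlapping genes of Slc13a3 and Slc13a5 had 0 counts and that of Slc25a10 had 2 counts in all libraries together, while Rnf167, which overlaps Slc25a11, had 10530. Sequence words of 31 bases shared with transcripts of other genes made up 0% of Slc13a3, Slc13a5, Slc25a1 and Slc25a11, 0.377% of Slc25a10 and 1.73% of Slc13a4.

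Upstream sequence is shown for the carrier that differed with B12, for the most abundant carrier and for a sulfate carrier of the same family as Slc13a3. Each run covers 200 bases, from base 250 to base 51 before the RefSeq transcription start, 5′ to 3′ on the gene's strand, with capitals for CACGTG, the E-box that MYC and related factors can bind.
Slc13a3, chr2:165473248-165473447, minus strand: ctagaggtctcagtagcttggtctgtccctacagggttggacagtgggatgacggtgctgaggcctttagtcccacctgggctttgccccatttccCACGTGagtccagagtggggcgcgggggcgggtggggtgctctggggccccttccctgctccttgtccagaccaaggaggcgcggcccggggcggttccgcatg
Slc25a1, chr16:17928270-17928469, minus strand: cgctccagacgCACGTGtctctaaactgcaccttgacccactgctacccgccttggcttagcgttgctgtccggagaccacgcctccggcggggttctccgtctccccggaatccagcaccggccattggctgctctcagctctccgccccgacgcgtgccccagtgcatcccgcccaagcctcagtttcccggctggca
Slc13a4, chr6:35308177-35308376, minus strand: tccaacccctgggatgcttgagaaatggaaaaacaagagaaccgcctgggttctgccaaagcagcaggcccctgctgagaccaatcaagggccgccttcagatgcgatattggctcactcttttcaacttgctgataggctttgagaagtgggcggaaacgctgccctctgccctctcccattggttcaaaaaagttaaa

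The Slc13a3 and Slc25a1 windows each held 1 CACGTG, and the windows of the other 4 carriers held none. Of 32851 RefSeq mouse promoters cut in the same way, 4.34% held it. The letters GGGNGTGG, a KLF motif read on both strands like the others, were in the windows of Slc25a10 and Slc25a11 and in 11.9% of all promoters. The octamer ATGCAAAT, CATTGT for SOX factors and GAGGAAGT for the myeloid factor PU.1 were in no window of the 6 carriers, against 1.32%, 8.94% and 1.75% of all promoters. The Slc13a3 window was 66% G or C with 10 CpG dinucleotides, and that of Slc13a4 51.5% with 5, against medians of 51.5% and 4 over all promoters. These matches describe letters only.

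Levels were compared between genes per transcript length, as TPM (a gene's count per base of its exons, scaled so that each library sums to 1000000). Slc25a1, which exports citrate from mitochondria in exchange for malate, was the most abundant carrier at a mean of 121 TPM (range 112 to 129 over 12 libraries), above 92.5% of the genes tested. Slc25a11, which exchanges 2-oxoglutarate for malate, followed at 78.7 TPM (69.2 to 89.9), and Slc25a10, which exchanges dicarboxylates for phosphate, at 20.7 TPM (18.1 to 26.8). Slc13a3, the sodium-coupled carrier of succinate, 2-oxoglutarate and N-acetylaspartate, averaged 8.45 TPM with a much wider range, 2.01 to 20.4. The citrate carrier Slc13a5 (0.2 TPM) and the sulfate carrier Slc13a4 (0.146 TPM) were near the limit of detection, with 11 to 40 and 7 to 29 counts per library.

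**Figure D1:**
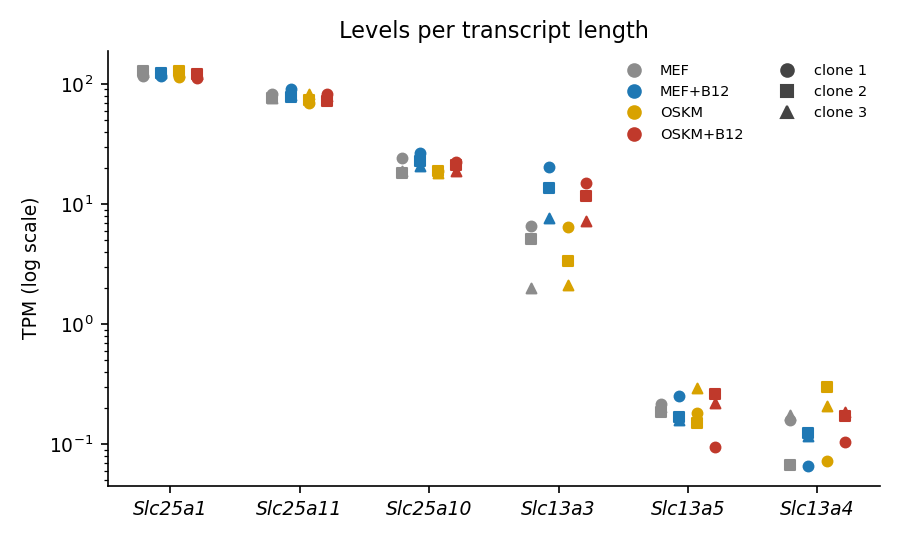
Level of each carrier in TPM (log scale) in the 12 libraries, with colour for the group and symbol for the clone. The 3 mitochondrial carriers sit at 18.1 to 129 TPM in tight clusters, Slc13a3 spreads from 2.01 to 20.4 TPM, and Slc13a5 and Slc13a4 lie below 0.3 TPM.

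The order Slc25a1, Slc25a11, Slc25a10, Slc13a3 held within 12 of 12 libraries, and each of these was above Slc13a5 and Slc13a4. The step from Slc25a10 to Slc13a3 was the least even, from 9.36-fold in 1 library to 1.31-fold in another, and their ranges over libraries overlapped. Slc13a5 was above Slc13a4 in 10 of 12 libraries with a ratio of 0.506 to 3.8, so this last pair did not differ beyond its spread. With the longest transcript in place of all exons the order was the same.

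In MEF, Slc13a3 was at 11.6, 9.72 and 3.74 CPM in clones 1, 2 and 3, and in MEF+B12 at 36, 26.4 and 14.4 CPM. In OSKM it was at 12.2, 6.5 and 3.89 CPM, and in OSKM+B12 at 26.9, 22.4 and 13.8 CPM. Every library with B12 was above every library without it, in both states. Such a separation in the higher direction was found for 5.85% of all genes tested in MEF and 4.8% in OSKM. These CPM rest on 237 to 2489 counts per library, so counting error is small beside the differences between clones.

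The log2 fold change of Slc13a3 with B12 was 1.64 ± 0.14 (SE) in MEF and 1.56 ± 0.14 in OSKM. Averaged over the 2 states it was 1.60 ± 0.10, a fold of 3.04 with n = 6 pairs of libraries. Within clones the log2 difference was 1.62, 1.44 and 1.94 in MEF and 1.14, 1.78 and 1.82 in OSKM, higher with B12 in 6 of 6 pairs. Over all 19174 genes the median log2 fold change was -0.013, and Slc13a3 ranked 8 for the average. Among the 13684 genes with a mean of at least 2 CPM it ranked 1, ahead of the macrophage scavenger receptor Marco at 1.47. No test is given for these values, since they chose the gene.

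**Figure D2:**
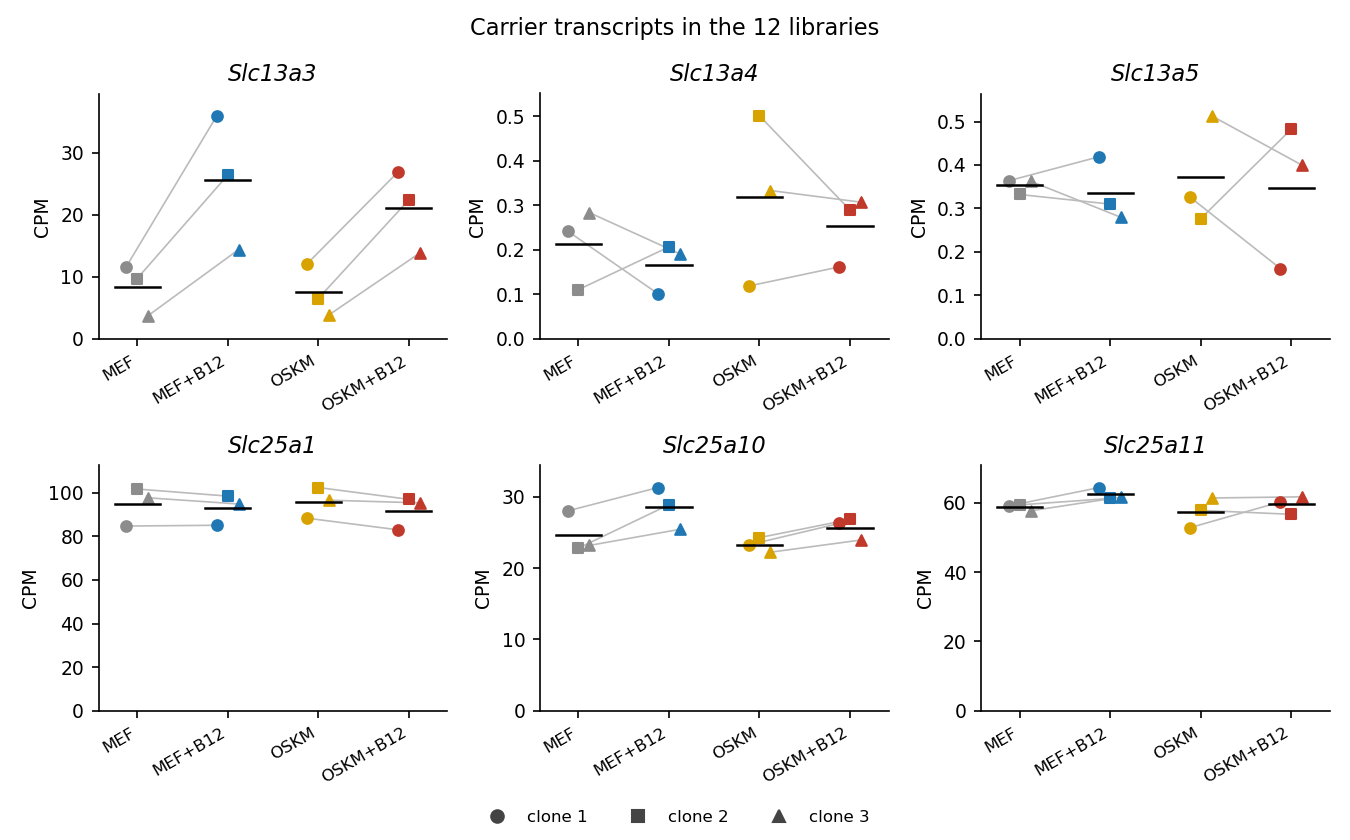
CPM (axes from 0, a separate scale for each gene) of the 6 carriers in the 12 libraries, where symbols mark clones, grey lines join the libraries of a clone without and with B12, and black bars are group means of 3 libraries. Slc13a3 goes up along each of its 6 lines, Slc25a10 goes up along 6 shallow lines, and the lines of Slc13a4 and Slc13a5 cross.

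Whether the state of the cells or their clone altered the Slc13a3 values was tested next. The choice of the gene did not use the induction contrasts. The interaction and the B12 response by clone compare the B12 differences for which the gene was chosen, so their p-values may depend on that choice. The difference with B12 was about as large in both states, with an interaction (OSKM minus MEF) of -0.077 ± 0.199 on the log2 scale, a 95% interval of -0.52 to 0.36 and an adjusted p of 1 by edgeR's quasi-likelihood test. Induction gave -0.16 ± 0.15 without B12 (adjusted p = 0.581) and -0.24 ± 0.13 with B12 (adjusted p = 0.452), and the groups overlapped in both. The 95% intervals were -0.48 to 0.17 and -0.53 to 0.06. In clone 3, where Pou5f1 was low, the induction differences were 0.056 and -0.057, against 0.062 and -0.42 in clone 1 and -0.58 and -0.24 in clone 2.

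Clones differed in their level of Slc13a3 throughout. Clone 1 was highest and clone 3 lowest in 4 of 4 groups, with clone 1 at 1.94 to 3.13 times the CPM of clone 3. The response to B12 did not pass the test for a difference between clones (adjusted p = 1), nor did the response to induction (adjusted p = 0.669). The genes called in these tests were 0% and 2.15% of those tested, and at an unadjusted p under 0.05 the first gave 227 genes.

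**Figure D3:**
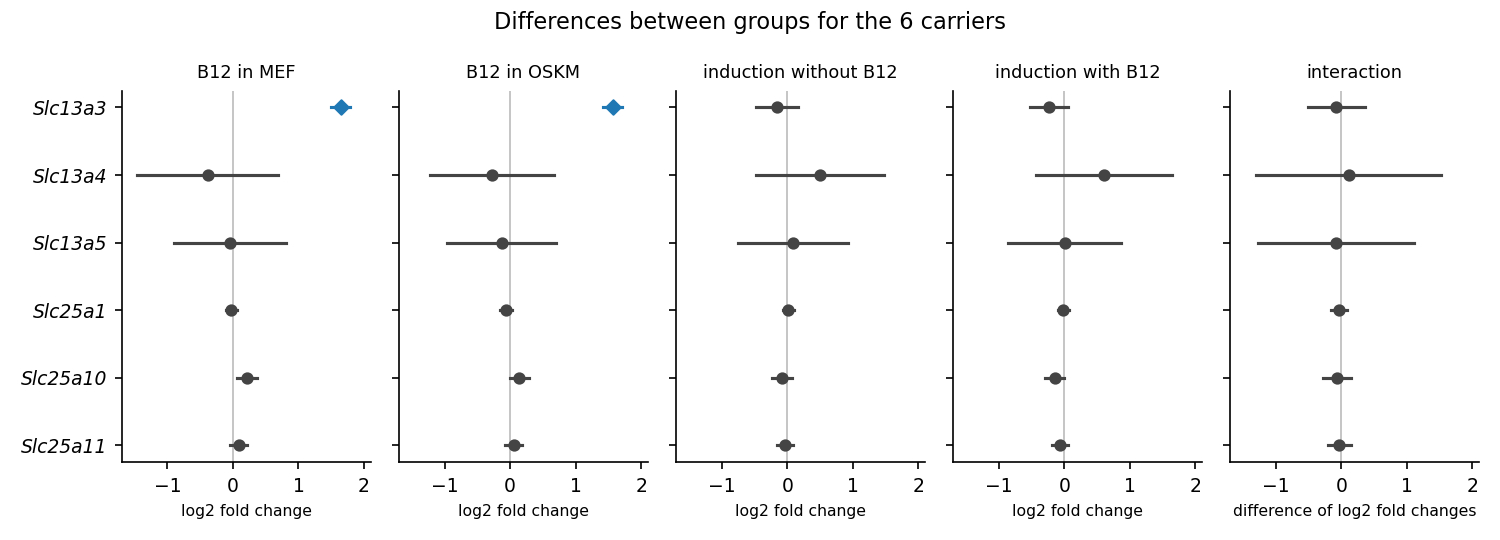
Log2 fold changes of the 6 carriers with B12 in each state and with induction without or with B12, and the interaction as the B12 difference in OSKM minus that in MEF. Circles carry 95% intervals, and the 2 blue diamonds for Slc13a3 carry 1 standard error because that gene was chosen for these values. The Slc13a3 diamonds stand at 1.64 and 1.56, and the intervals of the mitochondrial carriers are narrow and close to 0.

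Slc13a3 varied together with RNA of macrophages, immune cells that can be present in embryonic fibroblast cultures. All 12 listed macrophage markers were above 1 CPM and none was at 0, with a summed level of 1300 to 2489 CPM in MEF, 1962 to 3296 in MEF+B12, 1334 to 2300 in OSKM and 2036 to 2670 in OSKM+B12. With B12, 11 of the 12 rose in the average over both states, where 3.84% of all genes were called and 3.46% were called higher. Among them were Mrc1, the mannose receptor (log2 fold change 0.86 ± 0.08, adjusted p = 0.000206), and Csf1r, the receptor for macrophage colony-stimulating factor (0.71 ± 0.08, adjusted p = 0.000773). The twelfth, the chemokine receptor Cx3cr1, was at -0.45 ± 0.20 (adjusted p = 0.296). In bulk RNA a larger number of cells of a type and more RNA per cell cannot be told apart.

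The log2 difference of the marker sum with B12 was 0.41, 0.63 and 0.59 in MEF and 0.22, 0.75 and 0.61 in OSKM for clones 1, 2 and 3, smaller in each pair than that of Slc13a3. Lyz2 was the largest part of this sum, at a mean of 1063 CPM in MEF and 1414 CPM in MEF+B12. Its averaged log2 fold change with B12, 0.43 ± 0.08, was below those of Mrc1 and Csf1r. The sum, the ratio to it and its r therefore mostly reflect Lyz2. Per 1000 CPM of macrophage markers, Slc13a3 was at 4.4 ± 1.41 CPM (SD, n = 3) without and 9.4 ± 1.85 with B12 in MEF. In OSKM it was at 4.21 ± 1.2 without and 8.66 ± 1.69 with B12. Every library with B12 was above every library without it on this scale too, by 0.81 to 1.35 on the log2 scale within clones. As Slc13a3 was chosen for its large rise with B12, this separation follows in part from that choice. It is a description without a test, and the share of all genes that separate on this scale was not counted. Over the 12 libraries, which share clones and groups, the Pearson r of log2 Slc13a3 with the log2 marker sum was 0.948, and it was 0.963 once the mean of each clone was subtracted. For the marker lists of other cell types r ran from -0.733 (leptomeninges and choroid plexus) to 0.73 (hepatocytes). With clone means subtracted these were -0.777 and 0.785, although the hepatocyte sum was at most 0.434 CPM. All these r include the B12 difference that chose Slc13a3. Clone 1 was highest and clone 3 lowest for the marker sum as well. Which cells in these cultures hold the Slc13a3 RNA was not measured.

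**Figure D4:**
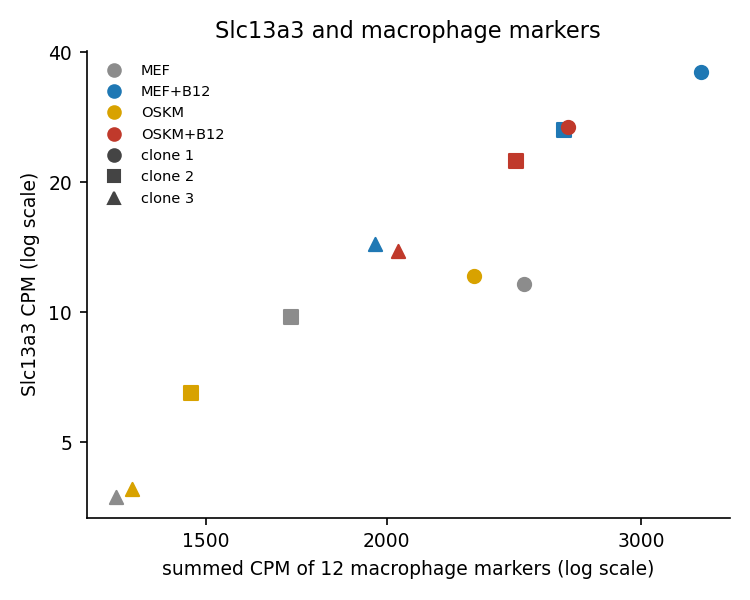
Slc13a3 against the summed level of 12 macrophage markers in each library, both in CPM on log scales, with colour for the group and symbol for the clone. Libraries with B12 lie higher on both axes than their partners without B12, and the 2 libraries of clone 1 without B12 (2489 and 2300 CPM of markers, 11.6 and 12.2 CPM of Slc13a3) lie below the B12 libraries of clone 3, whose marker sums are lower.

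Most markers of kidney proximal tubule and hepatocytes were at or near 0, while several markers of astrocytes and of leptomeninges and choroid plexus were present. Of 7 genes of the kidney proximal tubule, Slc22a12 and Miox had 0 counts in all libraries, Slc34a1 had at most 1 count per library, and only Lrp2 and Cubn, endocytic receptors found outside the kidney too, were above 1 CPM. Their summed level was 2.33 to 4.92 CPM, and 0 of the 2 tested were called with B12. The 6 hepatocyte markers summed to at most 0.434 CPM. Of 6 astrocyte markers 5 were above 1 CPM, and their sum was 27.6 to 48.3 CPM. Of 6 leptomeningeal and choroid plexus markers 3 were above 1 CPM, and their sum was 27 to 32.5 CPM. In both lists 0 were called higher with B12.

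The other plasma membrane carriers gave no difference that could be resolved at their depth. Slc13a4, which carries sulfate, had 14, 7 and 18 counts in MEF and 7, 12 and 13 in MEF+B12 for clones 1, 2 and 3. In induced cells it had 8, 29 and 26 counts without and 11, 18 and 20 with B12. Its log2 fold change with B12, averaged over both states, was -0.33 ± 0.32 (95% interval -1.04 to 0.38, adjusted p = 0.675). Slc13a5, which carries citrate, had 21, 21 and 23 counts in MEF and 29, 18 and 19 in MEF+B12. In induced cells it had 22, 16 and 40 counts without and 11, 30 and 26 with B12. Its averaged value was -0.09 ± 0.27 (-0.69 to 0.51, adjusted p = 0.908). The libraries of the groups overlapped for both genes, and 2 of 6 pairs were higher with B12 in each. Slc13a1 and Slc13a2, the remaining members of the family, did not pass the filter, with 0 and 30 counts in all libraries together.

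Among the mitochondrial carriers, Slc25a10 had the largest estimate with B12, which did not pass the threshold. It was at 28, 22.8 and 23.2 CPM in MEF and 31.3, 28.9 and 25.4 CPM in MEF+B12 for clones 1, 2 and 3, and at 23.2, 24.3 and 22.2 CPM in OSKM and 26.2, 26.8 and 23.9 CPM in OSKM+B12. It was higher with B12 in 6 of 6 pairs, as 8% of all genes were, although the groups overlapped in both states. The averaged log2 fold change was 0.18 ± 0.05 (95% interval 0.07 to 0.28). It missed the threshold in edgeR (adjusted p = 0.0776, range over alternatives 0.047 to 0.567) and passed it in DESeq2 (adjusted p = 0.047). In MEF it was 0.21 ± 0.07 (adjusted p = 0.236) and in OSKM 0.14 ± 0.07 (adjusted p = 0.535). Its r with the macrophage marker sum was 0.837 over 12 libraries and 0.776 with clone means subtracted, and with Slc13a3 0.797 and 0.71. The r with Slc13a3 includes the B12 difference that chose that gene. The part of macrophages in the Slc25a10 values was not tested.

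Slc25a1 was lower in clone 1 than in the other clones, a difference that was not tested. It was at 83.1 to 88.4 CPM in the 4 libraries of clone 1 and at 94.9 to 102 CPM in the 8 libraries of clones 2 and 3, which did not overlap. The share of all genes that separate in this way was not counted. Clone 1 is 1 embryo with a later year in its library titles, so the embryo and that year cannot be told apart. With B12 the averaged log2 fold change of Slc25a1 was -0.045 ± 0.027 (95% interval -0.11 to 0.015, adjusted p = 0.474), and 1 of 6 pairs was higher. Slc25a11 was at 57.7 to 59.4 CPM in MEF and 61.3 to 64.4 CPM in MEF+B12, which did not overlap. Such a separation in the higher direction was found for 5.85% of all genes, and the difference in MEF did not pass the threshold (0.088 ± 0.057, adjusted p = 0.683). Slc25a11 was at 52.8 to 61.4 CPM in OSKM and 56.7 to 61.7 CPM in OSKM+B12, which overlapped. Its averaged value was 0.072 ± 0.041 (-0.018 to 0.16, adjusted p = 0.44), higher in 5 of 6 pairs.

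Of the 5 carriers other than Slc13a3, edgeR called 0 with B12 in MEF, in OSKM and in the average, where it called 1.38%, 1.06% and 3.84% of all genes. At an unadjusted p under 0.05 the counts were 1, 0 and 1, in both cases Slc25a10. DESeq2 called 0, 0 and 1, against 2.45%, 2.02% and 4.87% of all genes. Induction changed 0 of the 6 carriers without or with B12, against 0.073% and 0.104% of all genes, and at an unadjusted p under 0.05 the counts were 0 and 1. That 1 was Slc25a10 with B12 (-0.15 ± 0.07, adjusted p = 0.33), and DESeq2 called 0 in both. The interaction called 0 carriers and 0% of all genes, with 0 carriers and 273 genes at an unadjusted p under 0.05, and DESeq2 also called 0.

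The genes around these carriers were examined as 82 genes in 8 lists, of which 73 passed the filter. With B12, 2 of the 73 rose in the average and 0 fell, 17 had an unadjusted p under 0.05, and DESeq2 called 3. Over all 19174 genes 3.84% were called and 2964 had an unadjusted p under 0.05. The called share of these lists, 2.74%, was no higher than that of all genes. At an unadjusted p under 0.05 their share was higher, 23.3% against 15.5%, a difference that was not tested. In DESeq2 the called shares were 4.11% of the lists and 4.87% of all genes. The third gene in DESeq2 was the lactate carrier Slc16a3. The 2 that edgeR called belong to the 15 tested carriers of other mitochondrial metabolites, whose median log2 fold change was 0.046. Slc25a13, a mitochondrial aspartate-glutamate carrier of the malate-aspartate shuttle, rose by 0.31 ± 0.07 (adjusted p = 0.0346), from 5.89 ± 0.86 to 7.72 ± 0.06 CPM (SD, n = 3) in MEF and from 7.05 ± 0.73 to 8.26 ± 1.02 CPM in OSKM, in 6 of 6 pairs. Ucp2, an inner membrane carrier that has been found to export dicarboxylates and is abundant in macrophages, rose by 0.23 ± 0.05 (adjusted p = 0.0323), from 69 ± 18.9 to 82.7 ± 18 CPM in MEF and from 68.2 ± 19 to 76.5 ± 9.96 CPM in OSKM. It was lower in the OSKM pair of clone 1 (-0.07) and higher in the other 5. The r with the macrophage marker sum over 12 libraries was 0.944 for Ucp2 and 0.294 for Slc25a13, and 0.949 and 0.556 with clone means subtracted, and the part of those cells in either value was not tested. Both calls were lost without clone 2 (adjusted p = 0.31 and 0.482) and without clone 3 (0.131 and 0.273), and that of Slc25a13 also without clone 1 (0.119). Over all genes the calls in the average fell too, from 736 to 525, 34 and 317 without clones 1, 2 and 3, so this loss is not particular to the 2 genes.

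**Figure D5:**
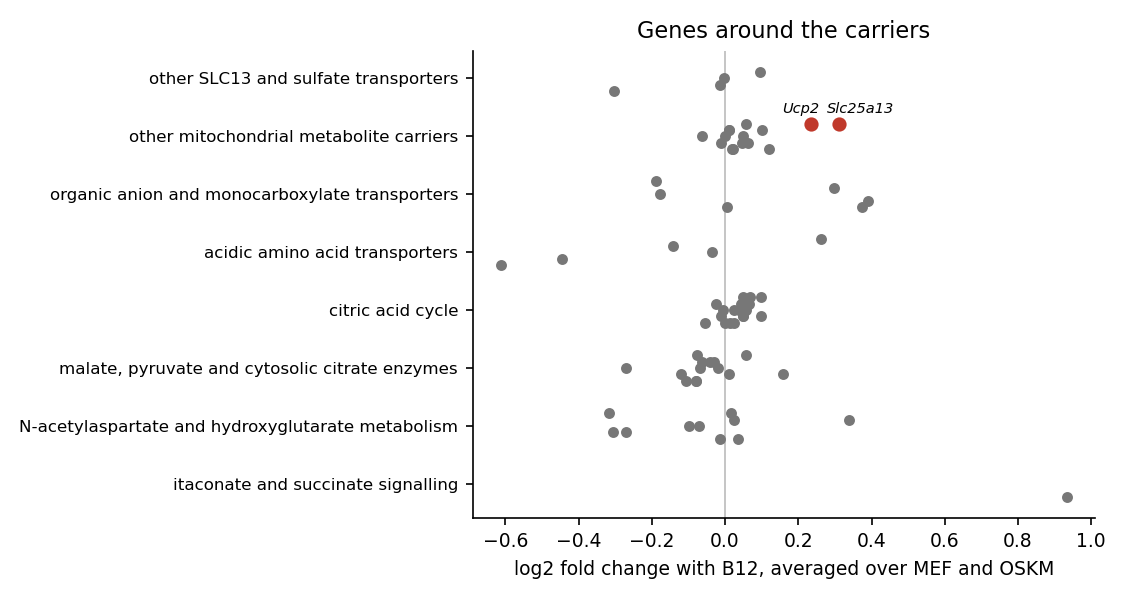
Log2 fold change with B12, averaged over both states, for the 73 tested genes in 8 lists around the carriers, 1 point a gene (vertical scatter within a list only separates points). Red points passed the threshold and are Slc25a13 at 0.31 and Ucp2 at 0.23, and the single point near 0.93 is Acod1, which did not pass.

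Of the enzymes that make or use the carried acids, edgeR called 0 with B12. For the 18 citric acid cycle genes the median log2 fold change with B12 was 0.04, with 2 at an unadjusted p under 0.05, against a median of -0.013 over all genes. The most abundant were the succinate dehydrogenase subunit Sdhd (0.098 ± 0.043, adjusted p = 0.3), Idh2, which makes 2-oxoglutarate in mitochondria (-0.054 ± 0.035, adjusted p = 0.513), and malate dehydrogenase Mdh2 (0.068 ± 0.033, adjusted p = 0.361). For the 14 genes of malate, pyruvate and cytosolic citrate the median was -0.066, with 4 at an unadjusted p under 0.05. Acly, which splits citrate in the cytosol, was at -0.069 ± 0.036 (adjusted p = 0.393), Idh1 at -0.042 ± 0.032 (adjusted p = 0.574) and Mdh1 at 0.056 ± 0.029 (adjusted p = 0.395). The values farthest from 0 in this list, chosen after they were seen, were those of the mitochondrial malic enzyme Me3 (-0.27 ± 0.08, adjusted p = 0.0938) and the aspartate aminotransferase Got1 (0.16 ± 0.04, adjusted p = 0.0853).

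For the 10 genes of N-acetylaspartate and hydroxyglutarate metabolism the median was -0.044 and 0 were called. Acy1, an aminoacylase, was at 0.034 ± 0.051, and the hydroxyglutarate dehydrogenase D2hgdh at 0.025 ± 0.042. In the 4 tested genes of SLC13 and sulfate transport the median was -0.009, with Slc26a11 at -0.015 ± 0.067, Slc26a2 at -0.002 ± 0.051 and Slc26a6 at 0.096 ± 0.08. The other abundant mitochondrial carriers were Slc25a3 for phosphate (0.056 ± 0.029), Slc25a39 (0.05 ± 0.036) and the pyruvate carrier subunit Mpc1 (0.021 ± 0.039). None of these 8 genes passed the threshold.

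Of the plasma membrane transporters in these lists, edgeR called 0 with B12. The 6 tested organic anion and monocarboxylate transporters had a median of 0.15, with the lactate carrier Slc16a1 at 0.006 ± 0.074, the bicarbonate carrier Slc4a4 at -0.19 ± 0.08 (adjusted p = 0.248) and Slc16a4 at -0.18 ± 0.06 (adjusted p = 0.16). At an unadjusted p under 0.05 the count was 4 of the 6. Slc16a3, named after its value was seen, was at 0.39 ± 0.11, which missed the threshold in edgeR (adjusted p = 0.0848) and passed it in DESeq2 (adjusted p = 0.0321). Slc16a7, chosen in the same way, was at 0.30 ± 0.095 (adjusted p = 0.137). The 5 acidic amino acid transporters had a median of -0.14, with Slc1a3 at -0.037 ± 0.068, Slc1a6 at -0.14 ± 0.15 and the cystine-glutamate exchanger Slc7a11 at 0.26 ± 0.14. The kidney carriers Slc22a6, Slc22a7, Slc22a8 and Slc5a12 and the mitochondrial Slc25a21 did not pass the filter.

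Acod1, which makes the dicarboxylate itaconate in activated macrophages, was the only tested gene of the list for itaconate and succinate signalling, as the succinate and 2-oxoglutarate receptors Sucnr1 and Oxgr1 did not pass the filter. It averaged 0.545 ± 0.422 CPM (SD, n = 3) in MEF and 0.954 ± 0.638 in MEF+B12, then 2.51 ± 2.37 in OSKM and 4.57 ± 3.09 in OSKM+B12. With B12 it was 0.93 ± 0.39 higher on the log2 scale (adjusted p = 0.282) and higher in 6 of 6 pairs. With induction it was at 1.97 ± 0.58 without B12 (adjusted p = 0.163) and 2.18 ± 0.52 with B12 (adjusted p = 0.176). Clones 1 and 2 gave 1.95 to 3.37 and clone 3 gave -0.28 and 0.72. Its r with the macrophage marker sum was 0.51, and 0.173 with clone means subtracted.

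Induction called 0 of the 73 genes without and with B12, with 17 and 7 at an unadjusted p under 0.05, and DESeq2 called 2 and 0. Over all genes 0.073% and 0.104% were called, and 3641 and 2854 of the 19174 had an unadjusted p under 0.05. DESeq2 called 2.54% and 2.17% of all genes. Without clone 3, whose induced libraries held little Pou5f1, edgeR called 8 and 5 of the 73, or 11% and 6.85%. In the same fit it called 1322 and 1004 of all 19231 genes, or 6.87% and 5.22%, and these counts are not a result about the lists. The 8 were Acod1 (2.65), Fh1 (0.25) and Slc25a12 (0.28) as higher and Slc1a6 (-0.94), Slc16a1 (-0.55), Slc16a7 (-0.54), Slc1a3 (-0.51) and Pcx (-0.32) as lower. The 5 with B12 were Acod1, Slc16a1, Slc16a7, Slc1a3 and Pcx, all in the same directions. These names come from the values without clone 3, and 0 of the 6 carriers were called there.

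The genes whose levels ran most like Slc13a3 were sought among 14348 genes by Pearson r of log2 CPM over the 12 libraries, which share clones and groups. All these r include the B12 difference that chose Slc13a3, so the ranking favours genes that rise with B12 and is a description without a test. Among the 10 closest were Alox5ap (r = 0.984), needed for leukotriene synthesis, Tmem8 (0.981), Ms4a6d (0.978), the pentose phosphate enzyme Pgd (0.974), Ms4a6c (0.971), Sash3 (0.97), and Slc11a1, Slc25a45 and Kcnab2 (each 0.967). With clone means subtracted they were Mrc1 and Tmem8 (0.987), Lcp2 (0.986), the scavenger receptor Msr1 (0.981), Ms4a6d (0.98), Inpp5d and Abcc1 (0.979), Alox5ap and Lrrc25 (0.978) and the chemokine Ccl12 (0.977). Alox5ap, Tmem8 and Ms4a6d were in both sets. Ranked by Spearman's rho instead, 4 and 0 of the 10 were the same.

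The other carriers had different nearest genes. For Slc25a10 they were Dgkz (r = 0.949), Arhgap45 (0.943) and Adcy7 (0.939), for Slc25a1 Adh1 and Sc5d (0.987) and Scpep1 (0.982), and for Slc25a11 Psme2 (0.939), Senp3 (0.91) and Spred1 (0.903). For the sparse Slc13a4 and Slc13a5 the highest r values were lower, 0.884 with Gnat2 and 0.777 with Zrsr1 and C1qtnf4, and in counts this low they carry little information.

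Within 250000 bases of either end of Slc13a3, 9 other genes passed the filter and 0 were called with B12 in the average, with 3 at an unadjusted p under 0.05. Over all 19174 genes 3.84% were called and 2964 had an unadjusted p under 0.05. The nearest, Ocstamp, 4623 bases away and needed for the fusion of osteoclasts and macrophages, averaged only 0.751 CPM and was at 1.28 ± 0.38 (adjusted p = 0.115). Elmo2, the most abundant neighbour at 105 CPM, was at -0.024 ± 0.029 (adjusted p = 0.74). Of the others, Slc35c2, Trp53rka, Slc2a10, Cdh22 and Gm11460 lay between -0.083 and 0.096, and Zfp334 (-0.12 ± 0.04, adjusted p = 0.211) and Eya2 (-0.31 ± 0.11, adjusted p = 0.179) were lower without passing the threshold.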

How the data were processed

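RNA of 12 libraries (3 clones in each of 4 groups) was made into strand-specific libraries from poly(A) RNA. The authors aligned read pairs with STAR 2.5.2 to mm10 (GRCm38), counted pairs per gene by strand with featureCounts on Ensembl 97 annotation, added the flow cells of a library together and deposited raw counts. How reads matching several places were treated is not given in the sources used here. The doxycycline concentration printed is that of the labels, from which the study's methods differ.

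Symbols and coordinates (1-based) were taken from GENCODE M21, which matched 55480 of 55573 identifiers. CPM used library totals scaled by TMM factors (0.934 to 1.06), log2 CPM a prior count of 2, and TPM the union of exons. Sequences came from RefSeq promoters (GRCm38.p6). Comparisons used edgeR 4.0.16 and its quasi-likelihood F test (R 4.3.3) on all 12 libraries, with group and clone as terms, filterByExpr, and Benjamini-Hochberg adjustment over 19174 genes at a threshold of 0.05. Adjusted p-values are from this test unless DESeq2 1.42.0 is named, ± after a log2 fold change is a standard error, and intervals are 95%. Responses by clone were tested by F tests on the products of clone with state or B12. The fit was tried on simulated counts with B12 effects but no differences between clones, so that trial does not cover the clone block.

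The clone entered as a block, since all 4 groups hold 1 library from each embryo. Libraries of a clone deviated together from their group means (r 0.27 to 0.687 over 18 pairs), against at most 0.17 between clones. No 2 libraries held identical counts. With the clone as a block, differences in level between embryos are taken out. The p-values rest on how the differences between groups vary among these 3 embryos only. There are no molecular identifiers, and amplification error is not covered by counting precision.

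Members and lists were chosen with earlier results of these data known. Named are all 6 carriers, list genes past the threshold in a comparison of groups and otherwise up to 3 of each list by mean TPM, the 10 genes most like Slc13a3 (3 for each other carrier), and genes within 250000 bases of Slc13a3. Of the genes these rules name, 2 are not reported here. Slc16a3, Slc16a7, Me3, Got1 and genes named as called only without clone 3 were chosen after their values were seen. Alternatives were DESeq2, other scalings and filters, a fit without the clone block, fits of only the libraries compared, leaving out each clone or the OSKM library of clone 1, the longest transcript for TPM, and Spearman's rho.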

Additional observations from a re-analysis of the deposited data

How the results depend on the processing

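Of 398 fold changes of the carriers, Slc25a13 and Ucp2 recomputed under the alternatives, 390 kept their side of the threshold (those of Slc13a3 with B12, which have no test, moved by less than 1 SD between clones) and 0 called values changed sign. The Slc13a3 difference with B12 ran from 1.55 to 1.77 in MEF, 1.45 to 1.81 in OSKM and 1.5 to 1.73 in the average. With DESeq2, 1 carrier other than Slc13a3 was called in the B12 average, Slc25a10 at 0.17 (adjusted p = 0.047), 2 pathway genes in B12 in MEF (Slc25a13 and Ucp2), 3 in the B12 average (Slc16a3 besides these, adjusted p = 0.0321) and 2 in induction without B12 (Slc16a1 and Slc1a3). These pathway counts were 2.74%, 4.11% and 2.74% of those tested, against 2.45%, 4.87% and 2.54% of all genes, and are not a result about the lists. Without the replicate block, which pairs the libraries of a clone, 0 pathway genes were called in the B12 average, with Slc25a13 at 0.309 (adjusted p = 0.266) and Ucp2 at 0.214 (adjusted p = 0.997), and the block changed no call of a carrier other than Slc13a3. In that average 90 of all 19174 genes were called without the block, against 736 with it. A fit to only the libraries compared called 2 pathway genes with B12 in MEF, again Slc25a13 and Ucp2, where it called 845 of all 18446 genes. Without a filter on low counts, 3 were called in the B12 average (again with Slc16a3, adjusted p = 0.0324), 3 in induction without B12 (Acod1, Slc16a1 and Slc1a3) and 1 with B12 (Acod1). These were 3.75%, 3.75% and 1.25% of the pathway genes, against 2.51%, 2.06% and 1.95% of all genes. Leaving out a clone gave 0 to 1 pathway genes with B12 in MEF and in OSKM, 0 to 1 in the average, 0 to 8 in induction without B12 and 0 to 5 with B12. Over all genes the B12 counts without clones 1, 2 and 3 were 253, 0 and 29 in MEF and 224, 0 and 13 in OSKM. In the average they were 525, 34 and 317, against 736 with all clones. The 8 and the 5 came without clone 3, where over all genes 1322 and 1004 were called against 14 and 20 with it. With the longest transcript, the mean was 129 TPM for Slc25a1 and 29 for Slc25a10. By Spearman's rho, 4 of the 10 genes most like Slc13a3 were shared with Pearson's r, and 0 with clone means subtracted. The causes were not tested.

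Slc13a4 and Slc13a5 rest on 7 to 40 counts per library, so differences inside their wide intervals were not detectable at this depth. At least 10 counts in every library left Slc13a4 out, so it has no value there. All comparisons of a pair of groups rest on 3 embryos, and those with B12 share control libraries with those of induction.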
